A study of Homo sapiens with 4 samples.

Results

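The Krüppel-like factors (KLFs) are zinc finger transcription factors, and the 10 described here are KLF2, KLF3, KLF4, KLF5, KLF6, KLF9, KLF10, KLF11, KLF13 and KLF16. They were taken as a fixed list of KLF genes expressed in colon epithelium, matched by Ensembl identifier, and are 10 of the 20263 gene rows of the count table. All 10 passed the filter on low counts, which left 14180 genes, and the lowest count of any of them in any library was 691. The cells were HCT116, a widely used epithelial line from a human colorectal carcinoma. One group of 2 samples had received HJJ_3_5, which the series title calls a piperine derivative, for 24 h. The other group, 2 samples, is labelled DMSO, the usual solvent for such compounds, and was cultured in the same medium with serum. Neither the concentration of HJJ_3_5 nor its structure is stated in the labels. Both groups are of 1 cell line, and whether the samples are separate cultures is not stated, so the p-values speak only of the spread among these 4 libraries, part or all of which may be technical.

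KLF proteins share a run of C2H2 zinc fingers at the carboxy end, which binds GC boxes and CACCC boxes, and differ in the amino end, which brings in coactivators or corepressors. KLF9, KLF10, KLF11, KLF13 and KLF16 can bind the SIN3A corepressor, KLF3 binds the corepressor CtBP, and KLF2, KLF4, KLF5 and KLF6 are known mainly as activators that can also repress. In the intestine KLF5 is typical of the dividing cells of the crypt and KLF4 of the differentiating cells above them, and several KLF mRNAs are short-lived products of early response genes.

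The libraries held 29211120 and 36455176 counts with HJJ_3_5, against 31120459 and 29769568 with DMSO. Levels are given as CPM, counts relative to the library total on the usual CPM scale, with library sizes scaled by the trimmed mean of M-values (TMM), with factors of 1.06 and 1.07 with HJJ_3_5 and of 0.947 and 0.928 with DMSO. Of 8 epithelial markers, 6 reached 1 CPM in every library, while VIL1 and LGALS4, markers of differentiated colon cells, stayed below it. The 8 summed to 5846 and 4936 CPM with HJJ_3_5 and to 4767 and 4337 CPM with DMSO. They did not move together, as KRT8, KRT18 and CDX2 were higher in both HJJ_3_5 libraries, EPCAM and KRT19 lower, and CDH1 overlapped. Of 11 markers of leukocytes, endothelium and fibroblasts, PTPRC and DCN were at 0 in all 4 libraries and 8 stayed below 1 CPM in every library. Those 11 summed to 64.2 and 62.5 CPM with HJJ_3_5 and to 111 and 103 CPM with DMSO, nearly all from CD68 and COL1A1, and their part in the KLF values was not tested. In bulk RNA, fewer cells that express a gene and less RNA of it per cell cannot be told apart.

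KLF9 and KLF10 fell with HJJ_3_5, to 0.524 and 0.512 of their DMSO levels, and the other 8 were not called in either direction. Among the sequences before the transcription start, that of KLF9 was AT-rich and those of most other members with a RefSeq window GC-rich. KLF10, which also fell, had no RefSeq window, and a link of base composition to the fall was not tested. The following stretches are the 120 bases before the RefSeq start (GRCh38.p14, 5′ to 3′ on the gene's own strand). They are shown for KLF9, which fell, for KLF2, KLF4 and KLF6, whose calls changed with the analysis setting, and for KLF14, a family member outside the 10 that rose. Capitals mark matches on either strand, with GGGCGG for the GC box, CACCC for the box of that name, CACGTG for the E-box and CCAAT for the box of that name. No match overlapped another in these stretches.
KLF9: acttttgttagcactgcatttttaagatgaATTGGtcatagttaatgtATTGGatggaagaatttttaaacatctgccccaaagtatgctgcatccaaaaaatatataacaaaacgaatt
KLF2: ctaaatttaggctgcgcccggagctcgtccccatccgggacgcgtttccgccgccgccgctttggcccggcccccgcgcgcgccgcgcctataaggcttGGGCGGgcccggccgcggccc
KLF4: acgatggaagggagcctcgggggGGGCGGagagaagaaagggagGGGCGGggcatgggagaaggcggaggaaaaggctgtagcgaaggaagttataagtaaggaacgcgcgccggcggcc
KLF6: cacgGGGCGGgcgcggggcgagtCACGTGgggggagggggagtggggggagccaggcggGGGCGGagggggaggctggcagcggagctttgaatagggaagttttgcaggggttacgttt
KLF14: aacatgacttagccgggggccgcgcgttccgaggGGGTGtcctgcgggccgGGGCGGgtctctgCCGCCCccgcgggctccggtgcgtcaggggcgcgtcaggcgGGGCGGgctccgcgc
These lie at chr9:70414658-70414777 on the minus strand for KLF9, chr19:16324706-16324825 on the plus strand for KLF2, chr9:107489770-107489889 on the minus strand for KLF4, chr10:3785210-3785329 on the minus strand for KLF6 and chr7:130734208-130734327 on the minus strand for KLF14.

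The KLF9 stretch was 30% G and C and held 2 CCAAT boxes on the opposite strand and no GC or CACCC box. A CCAAT box occurred in 32.0% of all windows of 250 bases, and 2 of them stood also in the KLF6 and KLF13 windows and in 1 of the KLF5 windows. G and C made up 76.7% of the KLF2 stretch, 64.2% of the KLF4 stretch, 70.8% of the KLF6 stretch and 80% of the KLF14 stretch. RefSeq windows were found for 8 of the 10 members (10 windows, as KLF5 and KLF11 had 2 each), and not for KLF3 or KLF10. Over the 250 bases before the start, G and C ranged from 32.4% in KLF9 to 86.4% in KLF16, against a median of 58% over all 34943 such windows. The KLF5 windows held 40.8% and 70.8%. Those of KLF12, a family gene outside the 10 that was also lower, ran from 38.4% to 72%. A GC box occurred in 42.5% of all windows, and a CACCC box in 54.7%. KLF16 held 7 GC boxes, KLF2 and KLF4 4 each, KLF13 3 and KLF6 2. The KLF11 windows held 2 and 6 GC boxes, and the KLF5 windows 0 and 2. The E-box, bound by factors of the CLOCK and MYC kind, occurred in 6.32% of all windows and in those of KLF4, KLF6 and 1 of the KLF11 windows. The cAMP response element TGACGTCA, in 1.63% of all windows, occurred once, in the other KLF11 window. These matches describe letters in a window and do not show binding.

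**Figure D1:**
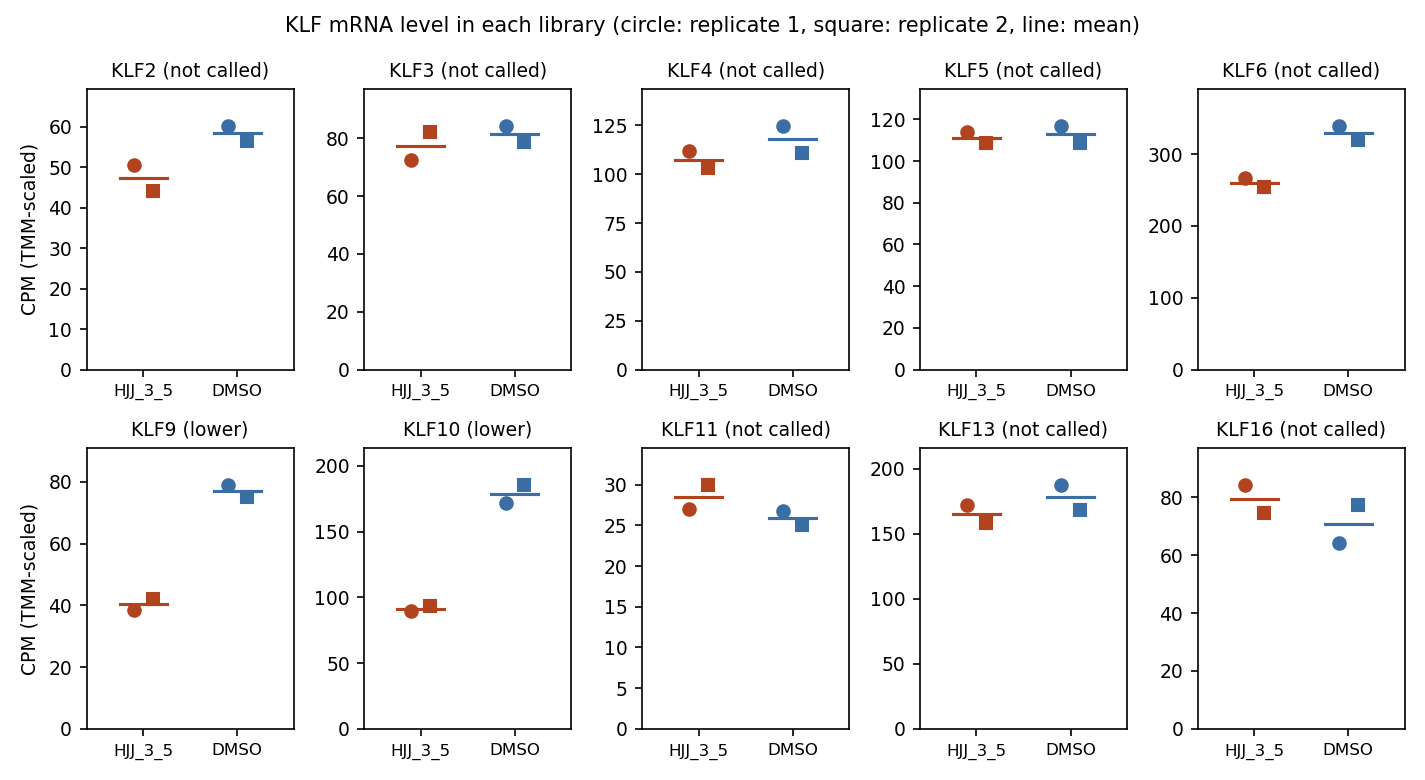
TMM-scaled CPM of the 10 KLF genes in each library, with HJJ_3_5 left of DMSO in every panel, circles for replicate 1, squares for replicate 2 and a line at the group mean. The HJJ_3_5 points of KLF9 and KLF10 lie near 40 and 91 CPM, well below their DMSO points, whereas those of KLF5 lie between its DMSO points.

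Set side by side per length of transcript, mean KLF mRNA levels ran from 7.06 to 55.9 CPM per kb with HJJ_3_5 and from 6.43 to 70.8 CPM per kb with DMSO. KLF6 was the most abundant in both groups, with 55.9 ± 1.87 CPM per kb with HJJ_3_5 and 70.8 ± 3.0 CPM per kb with DMSO (SD, n = 2 each, here and below). KLF10 took the fifth place with HJJ_3_5, at 25.0 ± 0.647 CPM per kb, and the second with DMSO, at 48.8 ± 2.67 CPM per kb. KLF4 followed with 38.2 ± 2.30 CPM per kb with HJJ_3_5 and 41.9 ± 3.51 CPM per kb with DMSO, and KLF5 with 31.2 ± 0.977 CPM per kb with HJJ_3_5 and 31.6 ± 1.65 CPM per kb with DMSO. The places of KLF10 and KLF16 differed most between the groups, by 3 each. With HJJ_3_5 the libraries of KLF10, KLF13 (24.2 ± 1.46 CPM per kb) and KLF2 (23.4 ± 2.23 CPM per kb) overlapped, and KLF16 lay just above at 27.5 ± 2.41 CPM per kb. With DMSO, KLF2 (28.9 ± 1.36 CPM per kb) lay above KLF13 (26.1 ± 2.01 CPM per kb) and KLF16 (24.5 ± 3.23 CPM per kb), whose libraries overlapped. The lowest places went to KLF3, KLF9 and KLF11 in both groups. KLF3 had 15.1 ± 1.33 CPM per kb with HJJ_3_5 and 15.9 ± 0.764 CPM per kb with DMSO. KLF9 had 7.79 ± 0.492 CPM per kb with HJJ_3_5, close to KLF11 at 7.06 ± 0.527 CPM per kb. With DMSO, KLF9 had 14.9 ± 0.548 CPM per kb, close to KLF3, and KLF11 had 6.43 ± 0.314 CPM per kb.

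Tested against DMSO, 0 of the 10 genes were higher and 2 lower with HJJ_3_5 (edgeR's quasi-likelihood test with Benjamini-Hochberg adjustment over 14180 genes, called below 0.05). Of all genes tested, 17.4% were called, 8.27% lower and 9.17% higher. The KLF share, 2 of 10 in either direction, lies near that background. At an unadjusted p below 0.05 the 10 held 3, KLF6 with KLF9 and KLF10, beside 5578 of the 14180 genes tested, so that this count does not exceed the background. The 2 HJJ_3_5 values lay wholly on one side of the 2 DMSO values for 5 of the 10 genes (KLF2, KLF6, KLF9, KLF10 and KLF11), as they did for 69.0% of all genes. The median log2 fold change of the 10 was -0.12, beside 0.00 over all genes, with 8 below 0 and 2 above. Scaling by library totals in place of TMM raised log2 fold changes by a median of 0.187. It called 2614 genes higher and 818 lower in place of 1300 and 1173, left KLF9 and KLF10 called and turned the sign of KLF3, KLF4, KLF5 and KLF13.

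**Figure D2:**
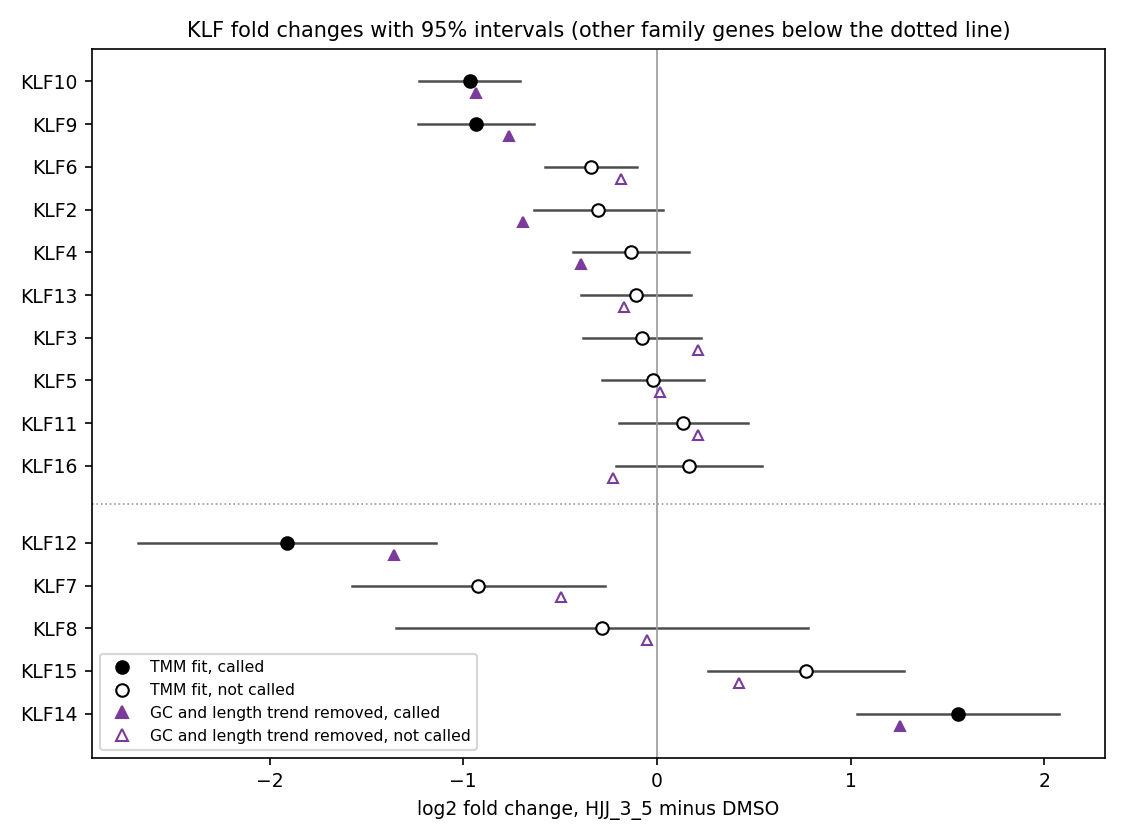
Log2 fold change of each KLF gene, HJJ_3_5 minus DMSO, as a circle with its 95% interval, and the value after removal of a GC and length trend as a triangle, filled where called. KLF10 and KLF9, at -0.97 and -0.93, are filled under both settings, KLF2 and KLF4 only as triangles, and below the dotted line KLF12 and KLF14 lie at -1.91 and 1.55.

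Among the SIN3A-binding members, KLF10, also known as TGF-beta-inducible early gene 1 and a repressor of proliferation in several epithelial settings, had 89.7 and 93.1 CPM with HJJ_3_5, against 172 and 186 CPM with DMSO. The groups were far apart, and the 2 samples of each lay close together. The means were 91.4 ± 2.37 CPM with HJJ_3_5 and 179 ± 9.75 CPM with DMSO. The log2 fold change was -0.97 ± 0.10 (SE, 95% interval -1.23 to -0.71), a 0.512-fold level (edgeR's quasi-likelihood test, adjusted p = 0.0273). KLF10 (ENSG00000155090) lies at chr8:102648779-102655902 on the minus strand (GENCODE 29, GRCh38) and has 4 exons. Of 14180 log2 fold changes, that of KLF10 ranked 1245 from the lowest.

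KLF9, a gene induced by glucocorticoid and thyroid hormone receptors in several tissues, had 38.5 and 42.1 CPM with HJJ_3_5, against 79.0 and 75.0 CPM with DMSO. Again both HJJ_3_5 samples lay well below both DMSO samples. The means were 40.3 ± 2.55 CPM with HJJ_3_5 and 77.0 ± 2.84 CPM with DMSO. The log2 fold change was -0.93 ± 0.11 (SE, 95% interval -1.23 to -0.63), a 0.524-fold level, with adjusted p = 0.0273 in edgeR's test, and ranked 1326 from the lowest. KLF9 (ENSG00000119138) lies at chr9:70384597-70414624 on the minus strand and has 2 exons.

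Both calls were made with every count model tried, but were lost when certain single libraries were left out. KLF9 and KLF10 were called with DESeq2, with limma-voom, with every scaling tried and after the trend removal described below. Without HJJ_3_5 2 both were still called, at log2 fold changes of -1.0 each. Without HJJ_3_5 1, edgeR's adjusted p was 0.0760 for each. Without DMSO 1 it was 0.0895 for KLF9 and 0.0682 for KLF10, and without DMSO 2 it was 0.109 and 0.106, so that neither was called in these 3 fits. The fold changes themselves stayed between -1.0 and -0.87 for KLF9 and between -1.02 and -0.91 for KLF10 when 1 library was left out. A lone sample is assumed in these fits to vary like the other group.

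KLF11, the closest relative of KLF10 and likewise TGF-beta-inducible, did not follow it. It had 27.0 and 30.0 CPM with HJJ_3_5, against 26.8 and 25.0 CPM with DMSO, so that the HJJ_3_5 samples lay narrowly above. The means were 28.5 ± 2.13 CPM with HJJ_3_5 and 25.9 ± 1.26 CPM with DMSO, and the log2 fold change of 0.14 ± 0.13 (95% interval -0.20 to 0.47) was not called (edgeR adjusted p = 0.468). KLF11 (ENSG00000172059, chr2:10042849-10054836, plus strand) shares 416 exon bases with the antisense gene AC104794.4, and without stated strand their reads cannot be told apart.

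KLF13, first described as an activator of CCL5 in T cells and a close relative of KLF9, had 172 and 158 CPM with HJJ_3_5, against 188 and 168 CPM with DMSO. The samples of the groups overlapped. The means were 165 ± 9.93 CPM with HJJ_3_5 and 178 ± 13.7 CPM with DMSO, for a log2 fold change of -0.11 ± 0.11 (95% interval -0.39 to 0.18, edgeR adjusted p = 0.501). KLF13 (ENSG00000169926) lies at chr15:31326855-31435665 on the plus strand and has the longest 3′ UTR of the 10, 5600 bases.

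KLF16, a repressor described at dopamine receptor promoters, had 84.3 and 74.4 CPM with HJJ_3_5, against 64.1 and 77.3 CPM with DMSO. Its DMSO samples were the most spread of any pair among the 10, by 18.7% of their mean, and overlapped the HJJ_3_5 samples. The means were 79.4 ± 6.96 CPM with HJJ_3_5 and 70.7 ± 9.34 CPM with DMSO, and the log2 fold change was 0.17 ± 0.14 (95% interval -0.21 to 0.54, edgeR adjusted p = 0.433). Removal of the GC and length trend turned it to -0.23, still not called. KLF16 (ENSG00000129911) lies at chr19:1852399-1863568 on the minus strand. It shares 483 exon bases with the antisense gene AC012615.3, so those reads cannot be assigned either.

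Ratios of counts within a library need no scaling between libraries, and were formed after the values had been seen, with no test. KLF10 had 3.33 and 3.10 counts per KLF11 count with HJJ_3_5, against 6.41 and 7.42 with DMSO. KLF9 had 0.224 and 0.266 counts per KLF13 count with HJJ_3_5, against 0.421 and 0.445 with DMSO. Both ratios were lower in each HJJ_3_5 library than in either DMSO library. These are ratios of unequal change, and do not show that KLF11 or KLF13 stayed the same.

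KLF4, an activator of the cell cycle inhibitor CDKN1A and of goblet cell differentiation, had 112 and 103 CPM with HJJ_3_5, against 125 and 111 CPM with DMSO. Its higher HJJ_3_5 sample lay between the DMSO samples. The means were 107.5 ± 6.47 CPM with HJJ_3_5 and 118 ± 9.88 CPM with DMSO, and the log2 fold change of -0.13 ± 0.11 (95% interval -0.43 to 0.17) was not called (edgeR adjusted p = 0.430). KLF4 (ENSG00000136826) lies at chr9:107484852-107490482 on the minus strand.

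KLF5, which promotes proliferation of crypt cells, was the member with the smallest difference. It had 114 and 109 CPM with HJJ_3_5, against 117 and 109 CPM with DMSO, so that the groups overlapped. The means were 111 ± 3.49 CPM with HJJ_3_5 and 113 ± 5.90 CPM with DMSO, and the log2 fold change was -0.02 ± 0.10 (edgeR adjusted p = 0.898). Its 95% interval, -0.28 to 0.24, excludes a change of the size seen for KLF9. KLF5 (ENSG00000102554) lies at chr13:73054976-73077542 on the plus strand. The count of KLF4 per count of KLF5 was 0.985 and 0.946 with HJJ_3_5, against 1.07 and 1.02 with DMSO.

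KLF6, an early response gene of tissue injury and a candidate tumour suppressor in colon and prostate, supplied 25.9% and 25.7% of the counts of the 10 genes with HJJ_3_5, and 27.1% and 26.5% with DMSO. It had 267 and 254 CPM with HJJ_3_5, against 339.7 and 319.9 CPM with DMSO, and the groups did not overlap. The means were 260.4 ± 8.69 CPM with HJJ_3_5 and 329.8 ± 14.0 CPM with DMSO. The log2 fold change was -0.34 ± 0.09 (95% interval -0.58 to -0.10), with adjusted p = 0.0639 in edgeR's test, just above the threshold. DESeq2 called it (adjusted p = 0.0383). After trend removal it was -0.19 (edgeR adjusted p = 0.251). KLF6 (ENSG00000067082) lies at chr10:3775996-3785281 on the minus strand.

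KLF2, best known as the flow-induced factor of endothelium and a quiescence factor of T cells, had 50.5 and 44.1 CPM with HJJ_3_5, against 60.2 and 56.3 CPM with DMSO. Both HJJ_3_5 samples lay below both DMSO samples. The means were 47.3 ± 4.50 CPM with HJJ_3_5 and 58.3 ± 2.75 CPM with DMSO, and the log2 fold change of -0.30 ± 0.13 (95% interval -0.63 to 0.03) was not called (edgeR adjusted p = 0.152). KLF2 (ENSG00000127528) lies at chr19:16324817-16327874 on the plus strand and has the shortest transcript of the 10, 2018 bases.

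KLF3, a CtBP-dependent repressor studied in fat and blood cells, had 72.5 and 82.1 CPM with HJJ_3_5, against 84.4 and 78.8 CPM with DMSO. The groups overlapped, with means of 77.3 ± 6.80 CPM with HJJ_3_5 and 81.6 ± 3.91 CPM with DMSO. The log2 fold change was -0.08 ± 0.12 (95% interval -0.38 to 0.23, edgeR adjusted p = 0.655), and trend removal turned it to 0.21, not called. KLF3 (ENSG00000109787, chr4:38664196-38701042, plus strand) shares 266 exon bases with the antisense gene KLF3-AS1.

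Added over the 10 genes, the libraries held 1027 and 990.1 CPM of KLF mRNA with HJJ_3_5, against 1256 and 1206 CPM with DMSO. Both HJJ_3_5 sums lay below both DMSO sums, and most of the gap came from KLF10, KLF6 and KLF9. Without scaling factors the sums were 1088 and 1063 CPM with HJJ_3_5, against 1189 and 1119 CPM with DMSO, the same order with a smaller gap.

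The members differ widely in base composition, from 41.5% G and C in the KLF3 transcript to 67.8% in that of KLF16, around a median of 50% for tested genes. Fold changes in these libraries were therefore also computed after removing from each library a smooth trend of level with GC content and length. In that fit 4 of the 10 were lower, KLF2 and KLF4 in addition to KLF9 and KLF10, and 0 were higher, where 13.6% of all genes were lower. KLF2, whose transcript is 65.2% G and C, moved to -0.69 (edgeR adjusted p = 0.0181). KLF4, at 55.0%, moved to -0.39 (edgeR adjusted p = 0.0346). KLF9, at 46.3%, was at -0.77 (edgeR adjusted p = 0.0176) and KLF10, at 47.2%, at -0.93 (edgeR adjusted p = 0.0129). The median of the 10 was then -0.21, against -0.05 for all genes. The calls of KLF2 and KLF4 therefore rest on the trend correction, whereas those of KLF9 and KLF10 were made with and without it.

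**Figure D3:**
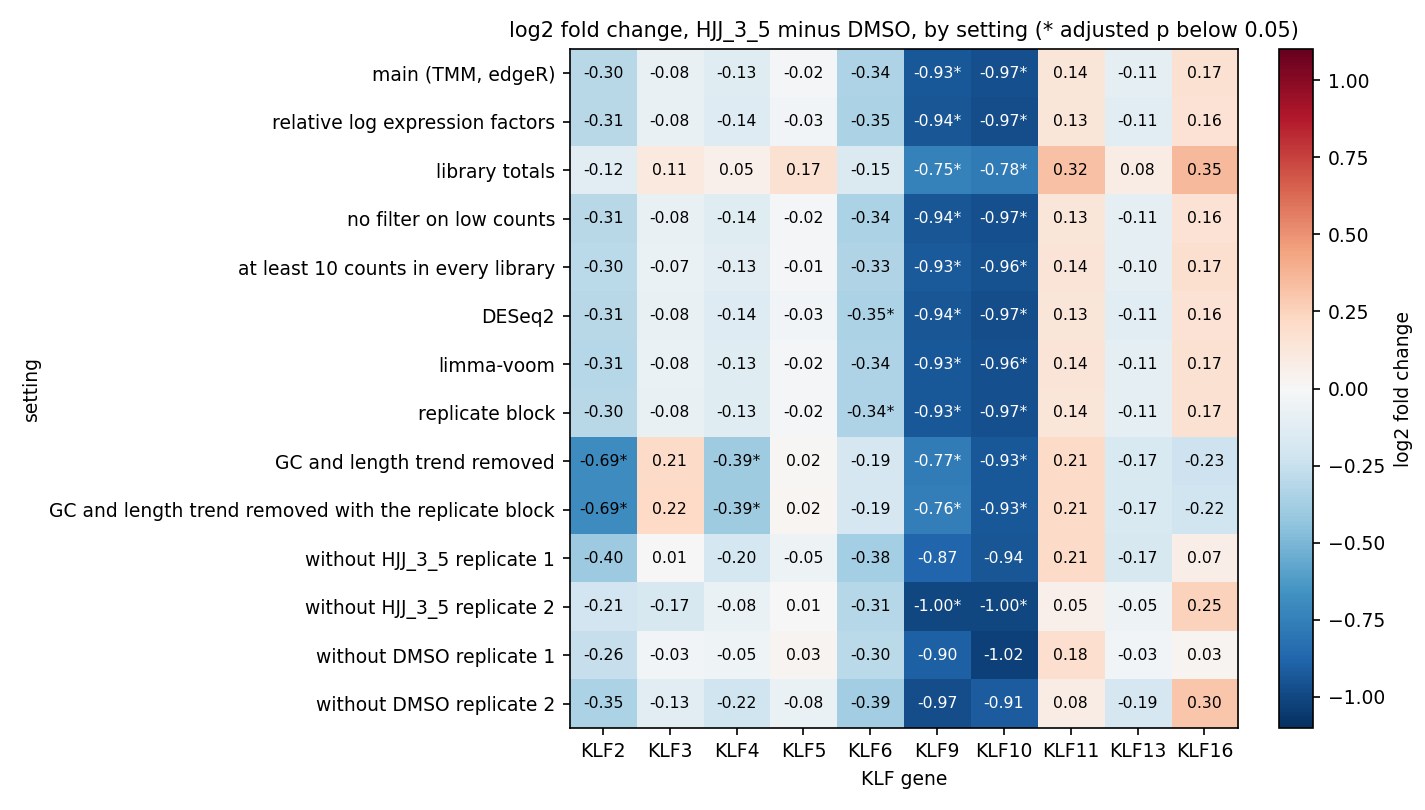
Log2 fold change of each KLF gene, HJJ_3_5 minus DMSO (columns), under each analysis setting (rows), with an asterisk where the adjusted p was below 0.05. The columns of KLF9 and KLF10 stay between -1.02 and -0.75 throughout, KLF2 and KLF4 are called in the trend-removed rows alone, and KLF3, KLF4, KLF5, KLF13 and KLF16 change sign between settings.

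All 10 members carry in the 3′ UTR the pentamer ATTTA, the core of AU-rich elements that shorten mRNA lifetime, as do 70.1% of the 13875 tested genes with a 3′ UTR. Per kb of 3′ UTR the count ran from 0.893 in KLF13 to 3.56 in KLF2, and 8 of 10 lay above the median of tested genes, 1.53. KLF9 and KLF10, with 2.52 and 2.23 per kb, did not stand apart from KLF11 with 2.58 per kb or KLF5 with 3.02 per kb. The longer form TATTTAT occurred in 5 of the 10, against 33.6% of tested genes, and in neither KLF9 nor KLF10.

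The genes whose levels over the 4 libraries were nearest to those of KLF9, by Euclidean distance of mean-centred log2 CPM among 10653 candidates, were TRIM36 (distance 0.0123), LANCL3 (0.0317) and LMBRD2 (0.0398). TRIM36, a ubiquitin ligase gene, had 11.5 and 12.6 CPM with HJJ_3_5, against 23.7 and 22.6 CPM with DMSO. For KLF10 the nearest were FAM72A (distance 0.0403), MPZL3 (0.0505) and ZZEF1 (0.0687). All 6 had log2 fold changes between -1.0 and -0.92, beside -0.93 for KLF9 and -0.97 for KLF10. This likeness follows from how the 6 were picked, over the same 4 libraries, and is no evidence of a shared regulation.

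Of 8 further family genes 5 passed the filter, and 1 was higher and 1 lower with HJJ_3_5. KLF12, a CtBP-binding repressor of the AP-2 alpha gene, had 6.75 and 10.4 CPM with HJJ_3_5, against 27.0 and 37.7 CPM with DMSO. Its log2 fold change of -1.91 ± 0.29 (edgeR adjusted p = 0.0299) was the largest of the family. KLF14, an intronless SIN3A-binding relative of KLF16 known from fat tissue, had 5.91 and 5.52 CPM with HJJ_3_5, against 1.90 and 1.99 CPM with DMSO (log2 fold change 1.55 ± 0.20, edgeR adjusted p = 0.0273). The 3 others tested were not called. KLF7 had 20.4 and 32.6 CPM with HJJ_3_5, against 48.9 and 51.6 CPM with DMSO (adjusted p = 0.0657 in edgeR). KLF15 had 6.59 and 5.67 CPM with HJJ_3_5, against 3.63 and 3.55 CPM with DMSO (adjusted p = 0.0575 in edgeR). KLF1, KLF17 and KLF18 did not pass the filter. Of the SP genes, which encode the sister family with the same zinc finger type, 8 of 9 were tested. SP4 was lower by edgeR (18.5 and 23.6 CPM with HJJ_3_5, against 38.1 and 38.0 CPM with DMSO, adjusted p = 0.0373). The WNT target SP5 was higher (4.04 and 3.68 CPM with HJJ_3_5, against 1.83 and 2.06 CPM with DMSO, edgeR adjusted p = 0.0464), a call lost after trend removal. SP1, with a log2 fold change of -0.56, was not called (edgeR adjusted p = 0.0597).

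**Figure D4:**
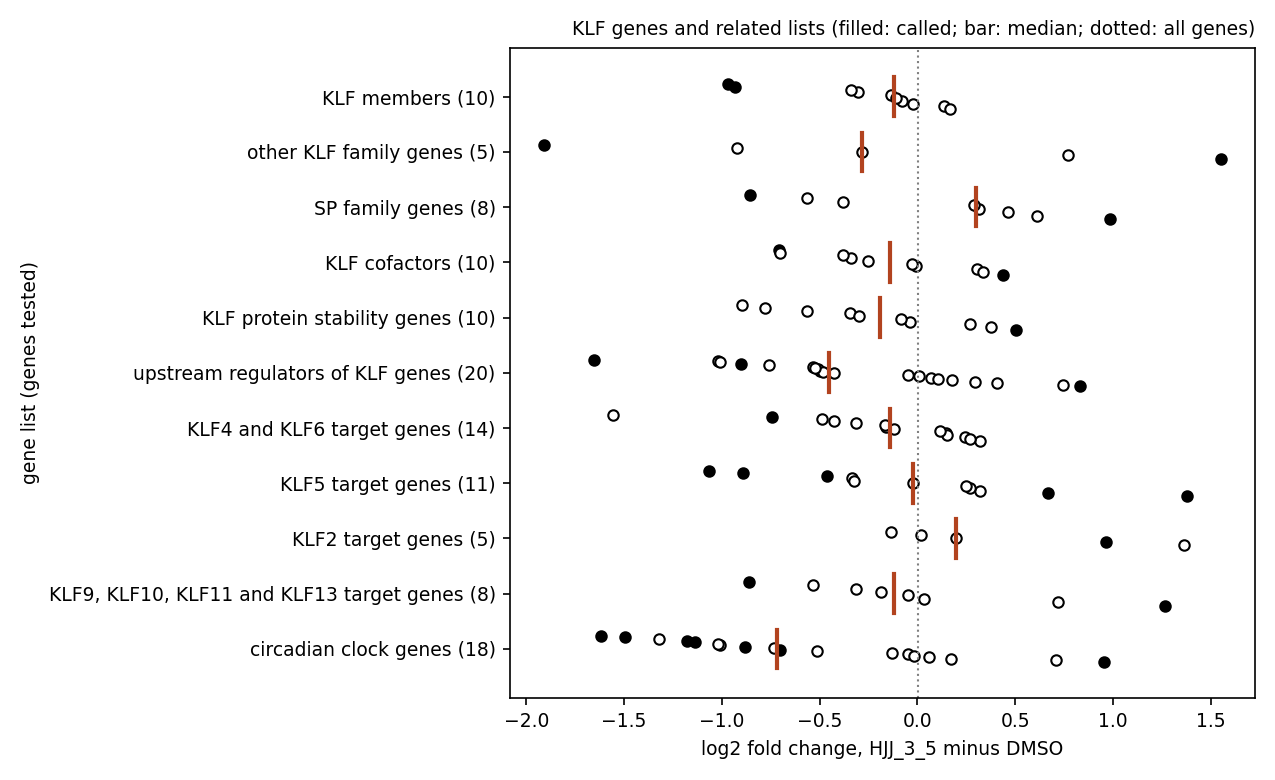
Log2 fold change, HJJ_3_5 minus DMSO, of the 10 KLF genes and of the tested genes of 10 related lists, filled where called, with a bar at each list's median and a dotted line at the median of all genes. The medians lie between -0.72 for circadian clock genes and 0.30 for the SP family, and a few genes stand in more than 1 list.

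Lists of genes around the KLFs were read in the same fit, by counts and medians, beside 9.17% of all genes higher and 8.27% lower and a median of 0.00. Of the 102 different genes tested over the 10 lists, 10 were higher and 17 lower, which library totals turned to 17 and 12. The 102 include KLF4, which stands in the list of KLF2 targets. Among the 17 lower with TMM, 6 were circadian clock genes. Of 10 cofactor genes, the acetyltransferase gene CREBBP was higher (log2 fold change 0.44 ± 0.09, edgeR adjusted p = 0.0454) and SIN3A, the corepressor of the KLF9 and KLF10 group, lower. SIN3A had 64.5 and 53.1 CPM with HJJ_3_5, against 87.9 and 104 CPM with DMSO (log2 fold change -0.71 ± 0.16, edgeR adjusted p = 0.0464, not called after trend removal). CTBP2, partner of KLF3, was at -0.01 and not called. Of 10 genes that act on KLF protein stability, VHL, whose product promotes KLF4 breakdown, was higher (log2 fold change 0.51 ± 0.10, edgeR adjusted p = 0.0373) and the other 9 were not called. Of 20 genes described as upstream of KLF genes, 1 was higher and 3 were lower, with a median of -0.45. The lower ones were MEF2C, an activator of KLF2 in endothelium (-1.65 ± 0.30), NR3C1, the glucocorticoid receptor known to induce KLF9 (-0.90 ± 0.13), and SMAD3, which carries the TGF-beta signal known to induce KLF10 (-0.50 ± 0.09). Their adjusted p-values from edgeR lay between 0.0293 and 0.0364, and NR3C1 was not called after trend removal. Any effect of these 3 genes on the KLF levels was not tested. CDX2, an activator of KLF4 in colon cells, was higher (0.83 ± 0.15, edgeR adjusted p = 0.0348), although KLF4 was not.

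Genes named in the literature as KLF targets were called higher in some cases and lower in others, and most were not called. The lists do not separate genes that a KLF activates from genes that it represses. A count of higher or lower targets therefore gives no direction of KLF activity. Of 14 KLF4 and KLF6 targets tested, 0 were higher and the interferon-induced IFITM3 was lower (log2 fold change -0.74 ± 0.11, edgeR adjusted p = 0.0299), and CDKN1A was not called (-0.16 ± 0.15, edgeR adjusted p = 0.458). With trend removal 4 of these 14 were lower, CDKN1A among them (-0.48, edgeR adjusted p = 0.0319). Of 11 KLF5 targets, 2 were higher and 3 lower. FGFBP1, which encodes a carrier of fibroblast growth factors, was higher by 1.38 ± 0.21 (edgeR adjusted p = 0.0301) and TNFAIP2 by 0.67 ± 0.11 (edgeR adjusted p = 0.0318). The kinase gene PIM1 had 59.7 and 52.2 CPM with HJJ_3_5, against 125 and 108 CPM with DMSO (edgeR adjusted p = 0.0273). EGFR was lower as well (-0.46 ± 0.10, edgeR adjusted p = 0.0421), a call lost after trend removal, and PDGFA, named here after its value was seen, was at -0.89. Of 5 KLF2 targets tested NOS3, the endothelial nitric oxide synthase gene, was higher (0.96 ± 0.14, edgeR adjusted p = 0.0293), although KLF2 was not. NOS3 overlaps ATG9B on the other strand. Of 8 targets of KLF9, KLF10, KLF11 or KLF13 tested, CYP1A1 was higher (1.27 ± 0.16, edgeR adjusted p = 0.0273) and MAOA, an amine oxidase gene known to respond to KLF11, lower (-0.86 ± 0.15, edgeR adjusted p = 0.0344). TXNIP was listed at 0 counts in all 4 libraries, and 3401 of the 20263 rows held no counts. With the build unknown, absent RNA and a gap in the counting cannot be told apart.

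KLF9 and KLF10 are known as outputs of the circadian clock in other tissues. Of 18 clock genes tested, 1 was higher, 6 were lower and 11 were not called with HJJ_3_5. The median log2 fold change was -0.72, with 4 of the 18 above 0. The same counts of higher and lower were found after trend removal. CRY1, a repressor of CLOCK and BMAL1, had 18.7 and 18.5 CPM with HJJ_3_5, against 59.8 and 54.7 CPM with DMSO (log2 fold change -1.62 ± 0.12, edgeR adjusted p = 0.0244). BHLHE40 had 235 and 221 CPM with HJJ_3_5, against 546 and 484 CPM with DMSO (-1.18 ± 0.11, edgeR adjusted p = 0.0244). PER2 was lower by a log2 fold change of -1.14 ± 0.12 (edgeR adjusted p = 0.0273). The 1 gene called higher was NPAS2, which can stand in for CLOCK. It had 137 and 135 CPM with HJJ_3_5, against 71.4 and 68.5 CPM with DMSO (0.96 ± 0.09, edgeR adjusted p = 0.0273). Also lower, and picked out once their values were known, were PER1, NFIL3 and DBP, at -1.49, -0.88 and -0.70. Both groups were sampled at 24 h only, so that a change of level and a change of phase cannot be told apart. A link of the clock genes to the levels of KLF9 and KLF10 was not tested.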

How the data were processed

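RNA-seq read counts per gene were measured in 4 libraries of HCT116 cells, grouped by their labels. The authors deposited raw counts, 1 column per sample, not normalized. The sources used here do not give the aligner, the counter or the use of strand. Per the submitters' processing notes the builds were GRCm38 and mm10, both mouse, yet the rows are human Ensembl identifiers, so the build is unknown. Of 20263 rows, 20148 matched a symbol. Reads shared by overlapping or copied genes may be miscounted.

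Genes were kept with filterByExpr (minimum count 10, minimum total 15), scaled by TMM and compared in edgeR 4.0.16 (R 4.3.3) with the two-sided quasi-likelihood test, with group alone in the model and 2 residual degrees of freedom, adjusted by Benjamini-Hochberg over 14180 genes. Intervals use the t quantile at each gene's total degrees of freedom. CPM per kb divides by the longest protein-coding transcript of GENCODE 29. Replicate libraries differed by more than sampling noise, with a chi-squared statistic per degree of freedom of 47.9 for HJJ_3_5 and 36.5 for DMSO. Spearman's rho across genes was 0.985 for HJJ_3_5 and 0.987 for DMSO. Each member had at least 691 counts per library, and counting error is part of the spread between samples.

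The trend with GC and length was fitted per library by natural splines (4 degrees of freedom, genes at log2 CPM 3 or more) and entered as an offset. Other alternatives were relative log expression factors, unscaled totals, other count filters, DESeq2 1.42.0, limma-voom (limma 3.58.1), a replicate block, an adjusted p below 0.01 and each library left out. The edgeR fits with and without trend removal were also run on simulated counts. Those counts held far fewer changed genes than were called here and no length trend, so no result is drawn from them. Promoters are from RefSeq (GRCh38.p14).

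The members, lists and alternatives were chosen with earlier results of these data known, so no list is independent evidence. The naming rule took all 10 members, up to 4 called genes of each list by smallest p, and for each called member the 3 nearest genes in mean-centred log2 CPM. PER1, NFIL3, DBP, PDGFA and the uncalled KLF7, KLF15, SP1, CTBP2 and CDKN1A fall outside it and were named after their values were seen.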

Additional observations from a re-analysis of the deposited data

How the results depend on the processing

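Counts of called genes are given here as higher and lower, for all genes, then the 10 KLF genes, then the related lists, and were 1300 and 1173, 0 and 2, and 10 and 17 with all 4 libraries and TMM. The related lists also hold KLF4, which is counted in both where it was called. Library totals gave 2614 and 818, 0 and 2, and 17 and 12. DESeq2 gave 1839 and 2161, 0 and 3, and 13 and 30. Trend removal gave 1473 and 1922, 0 and 4, and 12 and 21. At an adjusted p below 0.01, edgeR with TMM and limma-voom called 0 genes, DESeq2 2638, edgeR after trend removal 2 and edgeR with trend removal and the replicate block 557, KLF10 among them, and 5578 had an unadjusted p below 0.05 in edgeR with TMM. Replicate numbers are shared by label only (correlation of the replicate differences of the groups 0.328 across 10663 genes). The replicate block gave 2077 and 2540, 0 and 3, and 13 and 32, and called KLF6 (-0.34, edgeR adjusted p = 0.0273). Trend removal with the replicate block gave 2045 and 2900, 0 and 4, and 16 and 28. Leaving out 1 library gave from 0 to 976 higher and from 0 to 1716 lower of all genes, 0 higher and from 0 to 2 lower of the KLF genes, and from 0 to 8 and from 0 to 20 in the lists. Without HJJ_3_5 1 edgeR called 0 genes, with 4303 at an unadjusted p below 0.05, and without DMSO 1 it called 12 and 40, without DMSO 2 0 and 4. These fits have fewer samples.

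Relative log expression factors, both other filters and limma-voom changed no KLF call. Signs turned with library totals for KLF3 (0.11), KLF4 (0.052), KLF5 (0.17) and KLF13 (0.078), by the shift of scale. They turned with trend removal for KLF3 (0.21), KLF5 (0.017) and KLF16 (-0.23), and with the block added for KLF3 (0.22), KLF5 (0.018) and KLF16 (-0.22), and the cause was not tested. With 1 library left out, KLF5 ranged from -0.075 to 0.031 and KLF3 from -0.17 to 0.0077. None of these KLF genes was called where its sign turned. Precision is limited by 2 samples a group and by counting error, and uncalled members may still differ.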
